A study of Mus musculus with 68 samples.

Results

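The genes described here are 8 genes of fatty acid oxidation and fasting, most of them known targets of the nuclear receptor PPAR-alpha: Ppara, Cpt1a, Cpt1b, Pdk4, Angptl4, Acot1, Ehhadh and Fgf21. They were taken by symbol from a deposited table of read counts, in which they are 8 of 56748 genes, and they were followed through 68 libraries of mouse heart, lung, kidney and liver. The mice were wild-type C57BL/6J females aged 10 weeks, fed freely, with no transgene or deletion in any group. Egf-treated mice received 1 mg/kg Egf in phosphate-buffered saline (PBS) into the retro-orbital sinus under isoflurane. Vehicle mice received 50 to 60 µL of PBS alone in the same way, and untreated mice received no injection. Organs were taken 2 h or 6 h after injection, and polyadenylated RNA was sequenced without keeping strand. In every organ a time point was represented by 4 libraries of Egf-treated and 3 of vehicle mice, and 3 further libraries came from untreated mice.

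PPAR-alpha, the product of Ppara, is a nuclear receptor that binds fatty acids and pairs with a retinoid X receptor on DNA. In the fasted liver it turns on genes that carry fatty acids into mitochondria and peroxisomes and oxidise them, and genes that release fuel signals to other tissues. Several of these genes also answer to glucocorticoids, insulin and other nuclear receptors, so their levels are not a readout of PPAR-alpha alone. Egf is a growth factor that activates the receptor tyrosine kinase Egfr, which hepatocytes carry in quantity.

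Between 13271813 and 24972005 reads were assigned to genes in a library. The cell type markers of the labelled organ were present throughout, with summed levels of 43100 to 57100 CPM (counts scaled to a common library size) for cardiomyocyte genes in heart, 47100 to 67400 CPM for lung epithelium genes in lung, 19800 to 24900 CPM for kidney tubule genes in kidney and 110000 to 147000 CPM for hepatocyte genes in liver. Some heart and lung libraries also held markers of liver or kidney. For each, a level of a member computed from those organs was taken as the library's marker sum divided by that of liver or kidney libraries of the same condition, times the member's level there, summed over both organs in CPM of library totals. Liver vehicle 2 h replicate 2 stood apart in its reads from 18S ribosomal RNA, which were 0.0126% of its total, against 1.51% to 3.47% in the other liver libraries at 2 h. The labels name 3 untreated mice as the source of the untreated organs, and do not say whether the treated libraries of one group came from separate mice, so p-values measure the spread between these libraries. In bulk tissue, fewer cells of a type and less RNA per cell cannot be told apart.

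Upstream sequences are shown for the receptor gene itself, since Ppara was the member that Egf lowered, and for the pair of members whose upstream sequence held a searched motif. RefSeq promoter entries on GRCm38.p6 were matched by symbol for 6 of the 8 members. The 250 bases before each gene's start were searched on both strands for AGGTCA, the half-site of nuclear receptors, for that half-site repeated with 1 base between, which is the classical PPAR element, for CACGTG, the E-box of the clock factors, and for TTATGNAA, the D-box of the PAR bZIP factors. These motifs do not overlap one another except that the repeat contains the half-site. Of all 32851 promoter entries, 14.0% held the half-site, 0.0335% the repeat, 6.02% the E-box and 3.07% the D-box. Capitals below mark a match, read 5′ to 3′ on the gene's strand.
Ppara, chr15:85735526-85735775 on the plus strand: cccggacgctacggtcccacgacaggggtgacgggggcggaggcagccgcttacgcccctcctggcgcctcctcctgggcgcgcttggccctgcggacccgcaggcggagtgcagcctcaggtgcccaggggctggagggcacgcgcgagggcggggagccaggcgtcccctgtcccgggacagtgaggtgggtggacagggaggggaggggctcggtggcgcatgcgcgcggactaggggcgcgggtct
Cpt1a, chr19:3323051-3323300 on the plus strand: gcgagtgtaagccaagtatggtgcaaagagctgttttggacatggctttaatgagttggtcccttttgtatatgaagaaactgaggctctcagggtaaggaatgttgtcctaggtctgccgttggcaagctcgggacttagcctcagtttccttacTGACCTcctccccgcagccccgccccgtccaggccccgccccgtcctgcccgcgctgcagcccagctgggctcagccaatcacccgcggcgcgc
Fgf21, chr7:45615491-45615740 on the minus strand: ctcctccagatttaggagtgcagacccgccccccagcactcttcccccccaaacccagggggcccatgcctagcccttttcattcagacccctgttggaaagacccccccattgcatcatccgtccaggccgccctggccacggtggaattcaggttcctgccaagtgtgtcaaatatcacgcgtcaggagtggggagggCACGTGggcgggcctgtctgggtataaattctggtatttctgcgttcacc
Cpt1a held 1 half-site, on the strand opposite to the gene, and Fgf21 held 1 E-box. The windows of Ppara, Pdk4, Acot1 and Ehhadh held none of the 4 motifs, which says only that these letters are not in those windows. The Ppara window was 76.4% G and C, against 48.8% in that of Acot1.

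In untreated mice the members divided the organs differently. Ppara, on chromosome 15 from 85619184 to 85687020 in mm39, was highest in liver at 110, 92.0 and 185 CPM, followed by kidney at 40.6, 44.3 and 43.6 CPM, heart at 45.0, 30.1 and 34.7 CPM and lung at 2.69, 4.20 and 2.55 CPM. These levels among organs are on the scale of one fit over all 68 libraries, and were compared with edgeR's quasi-likelihood test adjusted by Benjamini-Hochberg over 18736 genes. That fit treated libraries of different organs as independent, although the untreated organs came from the same 3 mice. Kidney was below liver by a log2 difference of -1.59 ± 0.32 (SE, adjusted p = 3.19e-05), and heart was above lung by 3.53 ± 0.36 (adjusted p = 1.74e-12). Heart and kidney did not differ beyond their spread (-0.23 ± 0.32, adjusted p = 0.55).

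Cpt1a encodes the liver-type carnitine palmitoyltransferase that admits long-chain fatty acids to mitochondria. It averaged 442 ± 129 CPM (SD, n = 3) in liver, 377 ± 34.8 CPM in kidney, 91.1 ± 9.22 CPM in lung and 72.5 ± 13.5 CPM in heart. Kidney and liver did not differ beyond their spread (log2 -0.23 ± 0.23, adjusted p = 0.42), nor did heart and lung (-0.33 ± 0.23, adjusted p = 0.21). In untreated heart replicates 1, 2 and 3 the Cpt1a level computed from liver and kidney was 35.7, 23.1 and 30.2 CPM, where 82.6, 54.8 and 54.4 CPM were measured. Ehhadh, the bifunctional enzyme of peroxisomal beta-oxidation, averaged 806 ± 43.2 CPM in kidney and 786 ± 131 CPM in liver, which did not differ (0.04 ± 0.53, adjusted p = 0.983). Its levels of 69.1 ± 12.8 CPM in heart and 9.35 ± 4.74 CPM in lung differed from each other by 2.88 ± 0.57 (adjusted p = 2.05e-05), beside the markers of other organs in heart that are given further on. Acot1, a cytosolic acyl-CoA thioesterase, averaged 145 ± 15.6 CPM in kidney and 135 ± 16.1 CPM in liver (0.11 ± 0.23, adjusted p = 0.725), above 58.0 ± 23.7 CPM in heart and 31.3 ± 9.94 CPM in lung. Heart exceeded lung for Acot1 by 0.89 ± 0.24 (adjusted p = 0.000867), but not when replicate 1 was left out of all untreated organs (adjusted p = 0.226). Acot1 lies in a cluster of near-identical thioesterase genes on chromosome 12, with Acot2 and Acot4 on either side, so its count is uncertain to the extent that reads are shared among them.

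Pdk4, the kinase that shuts off pyruvate dehydrogenase and so spares glucose, was a heart gene in these mice, at 401, 321 and 337 CPM in untreated heart. Heart exceeded lung by a log2 difference of 4.52 ± 0.53 (adjusted p = 1.71e-10). Lung at 15.4 ± 13.8 CPM, kidney at 13.4 ± 3.18 CPM and liver at 10.7 ± 5.40 CPM did not differ pairwise (adjusted p = 0.315 to 0.723). Angptl4, a secreted inhibitor of lipoprotein lipase, averaged 53.9 ± 27.2 CPM in liver, and kidney was below liver by -2.14 ± 0.49 (adjusted p = 0.000169). Heart at 15.2 ± 5.01 CPM, lung at 14.6 ± 12.4 CPM and kidney at 12.2 ± 5.33 CPM did not differ pairwise (adjusted p = 0.584 to 0.927). Fgf21, a fasting hormone made mainly by liver, was near the limit of detection: 8 to 12 reads in each untreated liver library, 7, 0 and 7 in untreated heart, 0 in each untreated lung library and at most 1 in untreated kidney. Its mean was 0.366 ± 0.326 CPM in heart and 0.809 ± 0.148 CPM in liver, which did not differ beyond their spread (-1.16 ± 0.78, adjusted p = 0.201).

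Per kb of gene length, the order of levels in untreated liver ran from Ehhadh at 264 CPM per kb through Cpt1a at 57.8, Acot1 at 34.4, Ppara at 33.6, Angptl4 at 15.2 and Pdk4 at 3.03 to Fgf21 at 0.850 CPM per kb. In untreated heart Pdk4 led at 101 CPM per kb. Differences between organs were the rule for all genes: 6 of 8 members passed for heart against lung (background 66.3% of all genes tested), 6 for heart against kidney (61.7%), 7 for heart against liver (61.9%), 5 for lung against kidney (63.8%), 6 for lung against liver (71%) and 3 for kidney against liver (56.4%).

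**Figure D1:**
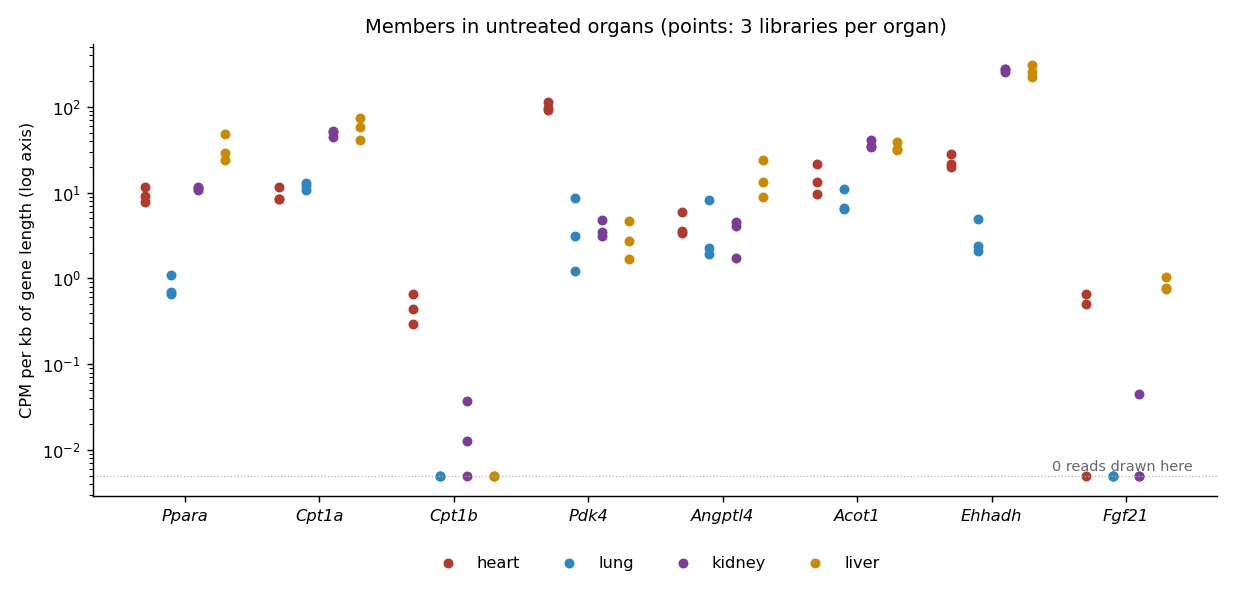
Levels of the 8 members in untreated heart, lung, kidney and liver, in CPM per kb of gene length on a log axis, with 1 point per library and libraries without a read drawn on the dotted line. Ehhadh leads in kidney and liver and Pdk4 in heart at 101 CPM per kb, and lung holds the lowest Ppara and Ehhadh.

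In liver, Egf lowered Ppara at 2 h. Ppara stood at 30.5, 39.2, 32.5 and 38.4 CPM in Egf libraries, against 69.7, 60.5 and 75.5 CPM in vehicle libraries. Every Egf library lay below every vehicle library. The log2 change was -0.96 ± 0.20 (SE), or 0.513 times the vehicle level, with adjusted p = 0.00598 by edgeR over 13592 genes. It was the only one of the 7 members tested in liver that passed, where 3.92% of all genes tested passed (Cpt1b had no read in liver). Without vehicle 2 h replicate 3 the change was -0.87 and its adjusted p was 0.0541, and in the 12 other alternatives it passed. Without replicate 2, the vehicle library with little 18S RNA, it was -1.03 (adjusted p = 0.0149).

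The other members tested in liver did not pass at 2 h, and their estimates lay on both sides of 0. Pdk4 had 5.89, 12.4, 16.6 and 21.1 CPM in Egf livers, against 8.54, 4.43 and 4.19 CPM in vehicle livers. The lowest Egf library lay within the vehicle range and the other 3 lay above it. Its log2 change of 1.29 ± 0.39 did not pass (adjusted p = 0.0813), but it passed in DESeq2 (adjusted p = 0.0187), in limma voom with quality weights (0.0473) and without Egf 2 h replicate 1 (0.0177), and its adjusted p ran from 0.0177 to 0.304 over the alternatives. Cpt1a had 181, 239, 290 and 183 CPM in Egf livers, against 224, 262 and 243 CPM in vehicle livers, a change of -0.12 ± 0.18 (adjusted p = 0.847). Ehhadh averaged 456 ± 40.2 CPM in Egf livers and 516 ± 35.5 CPM in vehicle livers, a change of -0.18 ± 0.15 (adjusted p = 0.672). Acot1 averaged 75.4 ± 23.3 CPM in Egf livers and 58.9 ± 17.1 CPM in vehicle livers (0.36 ± 0.24, adjusted p = 0.566). For these 3 genes the groups overlapped.

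The secreted members also overlapped between groups. Angptl4 had 86.6, 106, 154 and 164 CPM in Egf livers at 2 h, against 134, 37.0 and 113 CPM in vehicle livers, where replicate 2 was the low one. Its change was 0.43 ± 0.41 (adjusted p = 0.715), and 0.06 ± 0.36 without that vehicle library. Fgf21 averaged 0.645 ± 0.304 CPM in Egf livers and 0.580 ± 0.309 CPM in vehicle livers (0.17 ± 0.58, adjusted p = 0.938), from 4 to 16 reads per library.

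At 6 h the Ppara levels of the groups overlapped, with 79.7, 93.4, 110 and 111 CPM in Egf livers, against 115, 81.1 and 95.0 CPM in vehicle livers. The change was 0.02 ± 0.20 (adjusted p = 0.975). None of the 7 members passed in edgeR (background 0.0883%), and none passed in DESeq2 or limma voom. At an unadjusted p under 0.05 there was 1, Acot1, with 53.1 ± 11.6 CPM in Egf livers and 75.9 ± 17.1 CPM in vehicle livers (-0.51 ± 0.24, adjusted p = 0.574). Of all 13592 genes tested, 1160 had such a p. The difference between the Egf effects at 6 h and 2 h was 0.99 ± 0.28 for Ppara and did not pass (adjusted p = 0.104). It passed in DESeq2 (0.0487), in limma voom (0.0181) and when only the 4 groups concerned were fitted (0.0345). No member passed this test in edgeR (background 1.03%), and 3 had an unadjusted p under 0.05, as did 1913 of all 13592 genes tested.

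**Figure D2:**
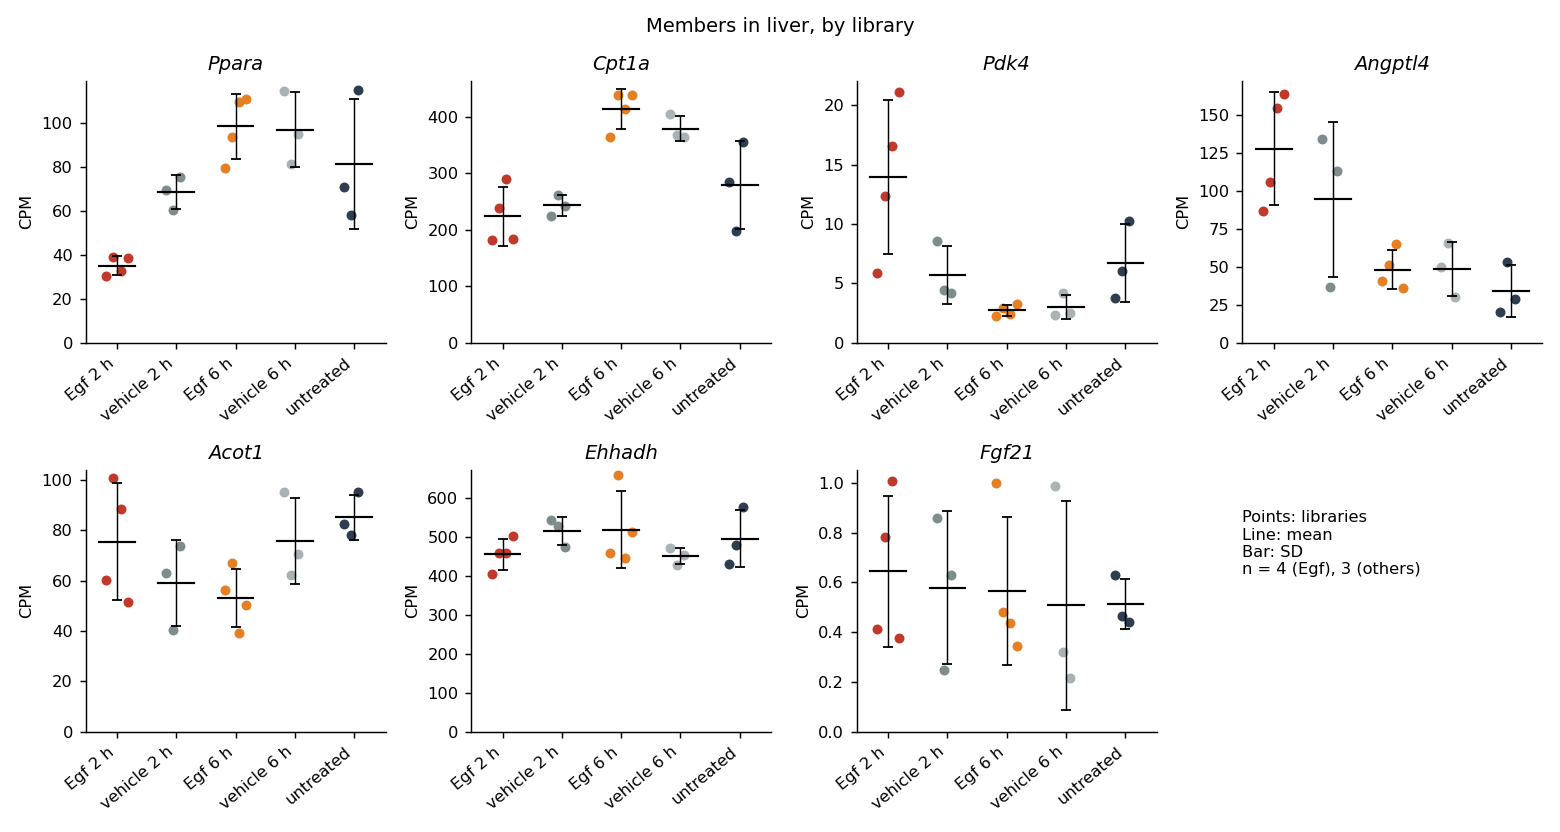
CPM of 7 members in each liver library, by group, with lines for group means and bars for the SD (n = 4 for Egf, 3 for vehicle and untreated). Ppara at 2 h lies at 30.5 to 39.2 CPM in Egf livers and 60.5 to 75.5 CPM in vehicle livers, and no other member separates Egf from vehicle.

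Other genes around the receptor were read from lists whose genes exclude the 8 members; of all genes tested in liver at 2 h, 1.95% rose and 1.97% fell. Of 11 regulators of PPAR-alpha and fasting in liver, 2 fell with Egf at 2 h and none rose, with a median log2 change of -0.27, against -0.02 over all genes tested. These were Lpin1, a phosphatidate phosphatase that also coactivates PPAR-alpha, at 53.2 CPM in Egf livers and 257 CPM in vehicle livers (log2 -2.27 ± 0.27, adjusted p = 4.08e-05), and the coactivator gene Ppargc1a, at 2.00 CPM in Egf livers and 8.37 CPM in vehicle livers (-2.06 ± 0.27, adjusted p = 0.000135). Lpin1 was itself higher in vehicle livers at 2 h, 257 CPM, than in untreated livers, 44.2 CPM (2.54 ± 0.30, adjusted p = 0.00131). Of 19 measured genes of the fasting hormone response, 4 fell and 1 rose, with a median of -0.51. Those named were Klf15, a fasting transcription factor (-1.75 ± 0.16, adjusted p = 1.73e-06), Tat, which degrades tyrosine (-1.79 ± 0.22, adjusted p = 5.82e-05), Pck1, an enzyme of gluconeogenesis (-2.50 ± 0.32, adjusted p = 0.000118), and Cebpb, a transcription factor, which rose (1.22 ± 0.21, adjusted p = 0.00191).

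The counts of oxidation enzymes are read against 3.92% of all genes called in either direction. None of 19 measured genes of mitochondrial fatty acid oxidation and ketogenesis passed (median 0.15), and 1 of 13 peroxisomal genes rose, the thioesterase gene Acot8 (0.54 ± 0.15, adjusted p = 0.0423). Of 5 measured omega-hydroxylases, Cyp4a14 rose to 1656 CPM in Egf livers, against 875 CPM in vehicle livers (0.92 ± 0.22, adjusted p = 0.0195). Of 17 measured genes of lipid uptake, storage and lipolysis, 2 rose: Cidec, a lipid droplet protein, at 18.1 CPM in Egf livers and 1.93 CPM in vehicle livers (3.21 ± 0.48, adjusted p = 0.000578), and Hilpda, another droplet protein that restrains lipolysis (1.32 ± 0.31, adjusted p = 0.0184). Of 10 genes for Fgf21 receptors and stress inducers, the receptor genes Fgfr3 (-0.96 ± 0.15, adjusted p = 0.000725) and Fgfr2 (-0.83 ± 0.15, adjusted p = 0.00217) fell. None of 9 measured paralogs of the members passed (median -0.02), and none of 12 genes of fatty acid synthesis (median -0.57). At 6 h no gene of the 9 lists passed in liver.

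Outside the liver, no member passed for Egf against vehicle at either time in edgeR. At 2 h none of the 7 members tested in heart passed (background 0.211%), none of 6 in lung (0.84%) and none of 6 in kidney (0.256%). None had an unadjusted p under 0.05. Of all genes, 1193 of 15618 in heart, 1423 of 16778 in lung and 1224 of 15654 in kidney had such a p. DESeq2 and limma voom called none of the members either. In lung at 2 h the Egf and vehicle values of Pdk4 and Angptl4 did not overlap. How many of all genes did so was not computed. Pdk4 had 40.8, 45.9, 48.1 and 52.8 CPM in Egf lungs, against 33.8, 34.0 and 29.5 CPM in vehicle lungs (0.53 ± 0.46, adjusted p = 0.875), and the change of Angptl4, whose values are given further on, was 0.55 ± 0.48 (adjusted p = 0.882). At 6 h none passed in heart (0.0128%), lung (0%) or kidney (0%), again with no unadjusted p under 0.05 and none in DESeq2. Over all genes, 1647 of 15618 in heart, 907 of 16778 in lung and 986 of 15654 in kidney had such a p. Limma voom called 2 members at 6 h in heart, Cpt1a (0.85 ± 0.19, adjusted p = 0.0196) and Pdk4 (adjusted p = 0.0405). All backgrounds in this report are shares called by edgeR. The shares of all genes called by limma voom and DESeq2 are not given, so counts of members from those tools have no background here. Pdk4 averaged 374 ± 156 CPM in Egf hearts at 6 h and 317 ± 157 CPM in vehicle hearts. Its log2 change ran from -0.099 to 1.06 over 14 alternatives, of which 2 had the other sign than the main fit. In heart at 6 h Cpt1a had 66.0, 69.6, 87.5 and 45.8 CPM in Egf libraries, against 46.7, 46.0 and 36.4 CPM in vehicle libraries, and the edgeR change was 0.64 ± 0.32 (adjusted p = 0.472). The Cpt1a level computed from liver and kidney was 16.8, 21.8, 51.7 and 4.62 CPM in these Egf hearts, of 72.2, 71.2, 86.1 and 49.4 CPM measured, against 4.92, 19.3 and 8.98 CPM in the vehicle hearts, of 49.5, 43.1 and 34.4 CPM measured. The highest Egf library, replicate 3, held 14900 CPM of hepatocyte markers, and with these markers as a covariate the edgeR change was 0.59 (adjusted p = 0.492). Pdk4 in heart had 355, 596, 851 and 546 CPM in Egf libraries at 2 h, against 274, 297 and 515 CPM in vehicle libraries, with overlap (0.70 ± 0.38, adjusted p = 0.645). The change of the Egf effect between 2 h and 6 h passed for no member in heart (background 0.0128%), lung (0.0417%) or kidney (0.0192%). That held in edgeR, DESeq2 and limma voom. At an unadjusted p under 0.05 there was 1 member in heart, none in lung and 1 in kidney. Among all genes, 662 of 15618 in heart, 962 of 16778 in lung and 1021 of 15654 in kidney had such a p.

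Ppara was not called in the other organs at 2 h. It averaged 61.4 ± 10.2 CPM in Egf kidneys and 56.4 ± 6.94 CPM in vehicle kidneys (log2 0.12 ± 0.13, adjusted p = 0.962), and 39.8 ± 8.09 CPM in Egf hearts and 33.3 ± 6.82 CPM in vehicle hearts (0.26 ± 0.18, adjusted p = 0.688). The Egf effect on Ppara in liver was lower than that in kidney by -1.06 ± 0.42, lower than that in heart by -1.20 ± 0.42 and lower than that in lung by -1.39 ± 0.44. None of these differences passed (adjusted p = 0.328, 0.127 and 0.117), nor did the joint test among the 4 organs (adjusted p = 0.187). In the joint test 1 of the 8 members had an unadjusted p under 0.05 at 2 h and 0 at 6 h. This count was not made over all genes. No member passed the joint test at 2 h (background 2.19%) or at 6 h (0.048%). The fall in liver is thus not shown to differ from the change in other organs.

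**Figure D3:**
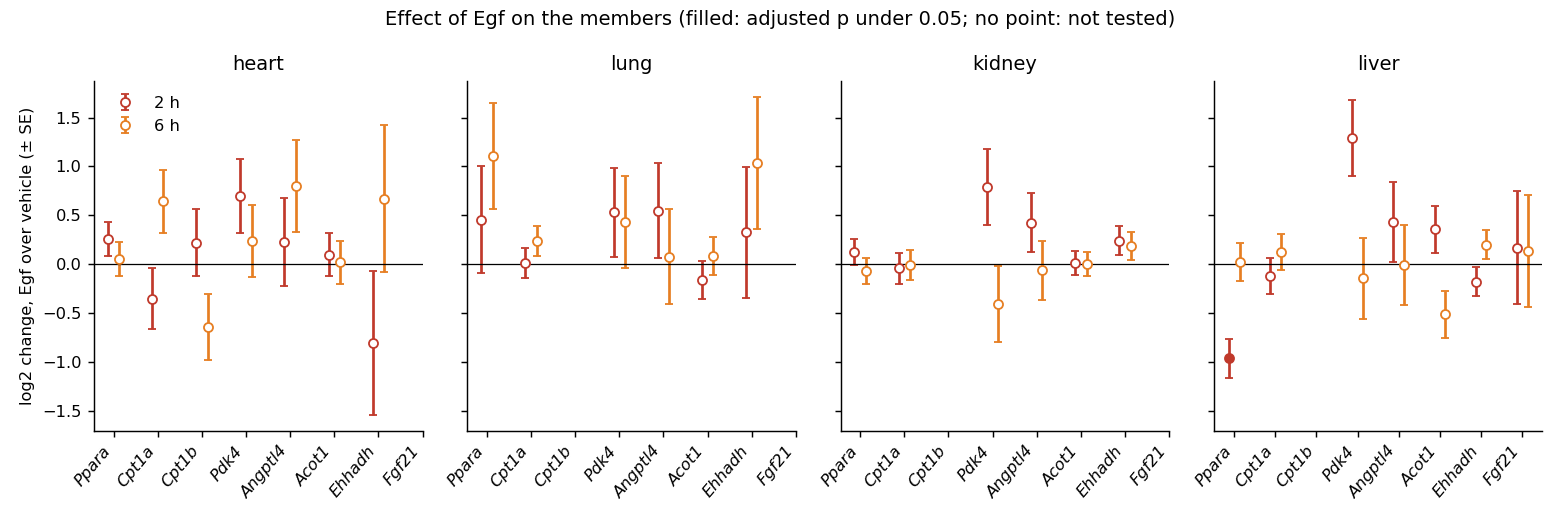
Log2 change of each member, Egf over vehicle, at 2 h and 6 h in 4 organs, with bars for the SE; filled points have an edgeR adjusted p under 0.05. Ppara in liver at 2 h, at -0.96, is the one filled point.

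Angptl4 was higher in Egf-injected than in untreated kidney, liver and lung at 2 h, and Pdk4 in kidney. In kidney at 2 h Angptl4 had 43.2, 54.5, 75.0 and 63.4 CPM in Egf libraries and 49.7, 29.1 and 52.8 CPM in vehicle libraries, against 16.8, 18.4 and 6.91 CPM in untreated libraries. All injected kidneys lay above all untreated ones. Egf against untreated gave a log2 change of 2.07 ± 0.33 (adjusted p = 0.00249), which passed in all 14 alternatives. Vehicle against untreated gave 1.64 ± 0.33 at 2 h (adjusted p = 0.122) and 1.48 ± 0.33 at 6 h (adjusted p = 0.116). Neither passed in edgeR, while DESeq2 (0.000654 and 0.00169) and limma voom (0.00167 and 0.00519) called both, and Egf against vehicle was 0.43 ± 0.30 at 2 h (adjusted p = 0.865). The comparisons with untreated mice share the same 3 untreated libraries. The injection, the anaesthesia and the time of day cannot be told apart in them.

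Pdk4 in kidney had 35.3, 45.6, 44.3 and 55.0 CPM in Egf libraries at 2 h and 48.9, 9.04 and 20.002 CPM in vehicle libraries, against 14.2, 19.6 and 12.4 CPM in untreated libraries. Egf against untreated gave 1.55 ± 0.40 (adjusted p = 0.0407), and this passed in 5 of 14 alternatives; with the replicate number as a block its adjusted p was 0.0854. The 2 kidney members called stand against a background of 3.8%. In liver, Angptl4 at 2 h was higher in Egf livers than in untreated livers, which had 19.98, 53.2 and 29.0 CPM (1.91 ± 0.43, adjusted p = 0.00591), and missed the threshold only without untreated replicate 3 (0.052). Ppara was lower in Egf livers than in untreated livers, which had 70.9, 58.3 and 115 CPM (-1.21 ± 0.20, adjusted p = 0.000322). These 2 of 7 stand against an edgeR background of 24.1% in that comparison. DESeq2 and limma voom each called 3, with Pdk4, which missed the threshold in edgeR (1.06 ± 0.38, adjusted p = 0.0529) and passed in 5 of 13 alternatives.

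In lung at 2 h Angptl4 had 88.1, 82.9, 77.2 and 103 CPM in Egf libraries and 64.4, 40.9 and 75.2 CPM in vehicle libraries, against 10.7, 44.8 and 12.3 CPM in untreated libraries. Untreated replicate 2 was the high one, and the same library had 871 CPM of summed white adipocyte markers, against 140 and 201 CPM in the other 2 untreated lungs, and 47.8 CPM of Pdk4, against 6.71 and 16.9 CPM. Lung Egf 6 h replicate 4 and vehicle 6 h replicate 2 also had high white adipocyte markers, 957 and 827 CPM. In CPM of library totals, their Angptl4 was 17.6 and 32.5 and their Pdk4 21.1 and 15.3. The part of those cells in the values was not tested. Hepatocyte markers were also higher in the Egf lungs, at 445 to 3640 CPM, against 24.0 to 97.2 CPM in untreated lungs. The Angptl4 level computed from liver and kidney was 3.51, 1.27, 0.502 and 1.96 CPM in these Egf lungs, of 86.6, 78.8, 74.9 and 100 CPM measured. In untreated lungs it was 0.00651, 0.0254 and 0.253 CPM, of 11.1, 47 and 12.9 CPM measured. Egf against untreated gave 1.96 ± 0.51 (adjusted p = 0.0389; background 6.41%) and passed in 4 of 14 alternatives; with the replicate number as a block its adjusted p was 0.0813, and with hepatocyte markers as a covariate the change was 1.497 (adjusted p = 0.117). Without untreated replicate 2 it was 2.94 ± 0.44 (adjusted p = 0.00211), vehicle against untreated at 2 h was 2.39 ± 0.44 (adjusted p = 0.0387) in place of 1.41 ± 0.53 (adjusted p = 0.357), and Pdk4 passed too for Egf against untreated (1.99, adjusted p = 0.00519). In heart none of 7 members passed for Egf at 2 h against untreated (background 0.756%) in edgeR or DESeq2. An unadjusted p under 0.05 was met by 2 members, and by 1845 of all 15618 genes tested. Limma voom called 1 member, Cpt1a, as lower in Egf hearts (-0.94 ± 0.24, adjusted p = 0.0417). The Cpt1a level computed from liver and kidney was 1.99, 0.430, 24.5 and 0.161 CPM in these Egf hearts, of 33.4, 35.3, 70.2 and 29.6 CPM measured, against 35.7, 23.1 and 30.2 CPM in untreated hearts, of 82.6, 54.8 and 54.4 CPM measured. With hepatocyte markers as a covariate the edgeR change was -0.41 (adjusted p = 0.733), where it was -0.68 ± 0.32 (adjusted p = 0.418) without.

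**Figure D4:**
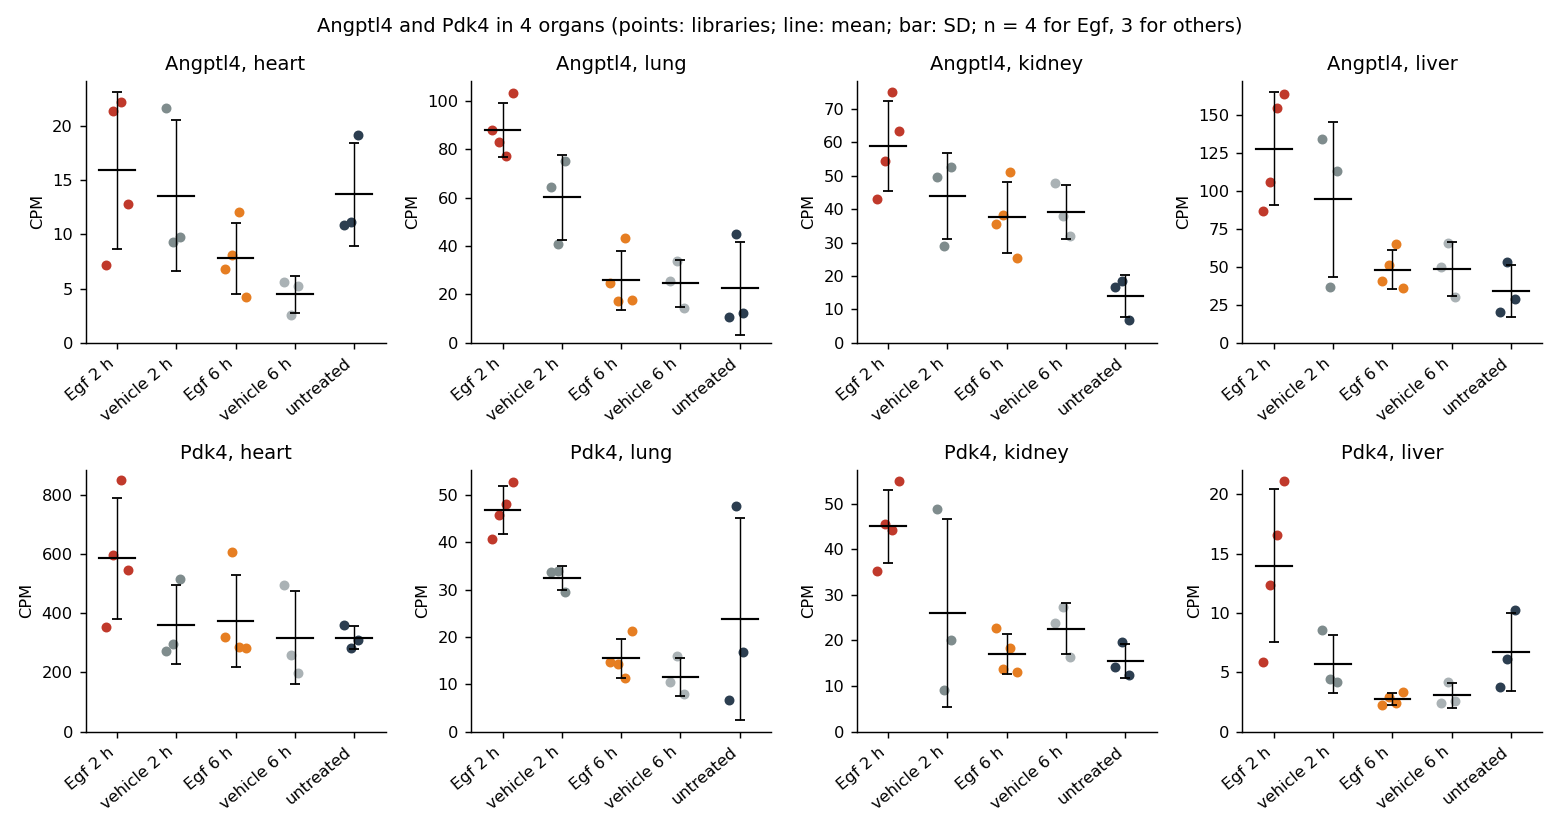
CPM of Angptl4 and Pdk4 in each library of 4 organs, by group, with lines for means and bars for the SD (n = 4 for Egf, 3 for the others). Injected kidneys at 2 h hold 29.1 to 75.0 CPM of Angptl4 and untreated kidneys 6.91 to 18.4 CPM.

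Vehicle alone changed no member past the threshold of edgeR in any organ. At 2 h against untreated, none passed in heart (background 0.0128%), lung (0.0656%), kidney (0.0256%) or liver (0.155%). In that order, 0, 2, 2 and 1 members had an unadjusted p under 0.05. That p was met by 2532 of 15618 genes in heart and 2047 of 16778 in lung. In kidney it was met by 2130 of 15654 genes, and in liver by 2256 of 13592. DESeq2 and limma voom each called 1 member in kidney and 1 in liver, Angptl4 in both organs. In liver Angptl4 had 134, 37.0 and 113 CPM in vehicle libraries at 2 h, against 19.98, 53.2 and 29.0 CPM in untreated libraries (1.48 ± 0.44, adjusted p = 0.211). At 6 h against untreated, none passed in heart (0.0192%), lung (0.101%), kidney (0.211%) or liver (0.67%). In that order, 2, 0, 2 and 2 members had an unadjusted p under 0.05. That p was met by 1456 of 15618 genes in heart and 1645 of 16778 in lung. In kidney it was met by 1113 of 15654 genes, and in liver by 1745 of 13592. DESeq2 called 1 of these members, Angptl4 in kidney. Limma voom called that one, Cpt1a and Acot1 in heart as lower, and Ppara and Cpt1a in liver as higher. Hepatocyte markers in heart were 459 to 3100 CPM in these vehicle libraries, against 17100, 1270 and 14500 CPM in untreated replicates 1, 2 and 3. The computed Cpt1a level was 4.92, 19.3 and 8.98 CPM in vehicle hearts, against 35.7, 23.1 and 30.2 CPM in untreated hearts, and that of Acot1 was 0.988, 5.21 and 1.82 CPM in vehicle hearts, against 10.8, 8.69 and 9.19 CPM in untreated hearts, of 79.0, 32.2 and 43.6 CPM measured. Angptl4 in heart had 5.56, 2.52 and 5.28 CPM in vehicle libraries at 6 h, against 10.9, 11.1 and 19.2 CPM in untreated libraries, without overlap (-1.62 ± 0.50, adjusted p = 0.363). The computed Angptl4 level was 0.629, 1.52 and 1.13 CPM in these vehicle hearts, of 5.9, 2.36 and 4.99 CPM measured. In untreated hearts it was 4.3, 0.981 and 3.64 CPM, of 11.4, 10.6 and 17.7 CPM measured. The vehicle effect at 2 h did not differ among organs for any member (background 0.235%), with 2 at an unadjusted p under 0.05. The unadjusted count was not made over all genes.

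Between the vehicle groups, 6 h against 2 h, none passed in edgeR in heart (background 0.0384%), lung (0.441%), kidney (0.179%) or liver (1.55%). In that order, 1, 3, 0 and 4 members had an unadjusted p under 0.05. That p was met by 834 of 15618 genes in heart and 1605 of 16778 in lung. In kidney it was met by 1149 of 15654 genes, and in liver by 1760 of 13592. In liver Cpt1a had 404, 368 and 364 CPM at 6 h, against 224, 262 and 243 CPM at 2 h, without overlap (0.64 ± 0.20, adjusted p = 0.126). It passed in DESeq2 (0.0489), in limma voom (0.00591) and when only these groups were fitted (0.0338). In lung Pdk4 had 10.5, 15.9 and 7.98 CPM at 6 h, against 33.8, 34.0 and 29.5 CPM at 2 h (-1.50 ± 0.50, adjusted p = 0.287), and passed in DESeq2 (0.0307) and limma voom (0.0234). The part of the time of day in these changes was not tested.

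Ehhadh in heart moved with markers of liver and kidney. Heart Ehhadh ran from 11.6 to 95.4 CPM over 17 libraries, and the highest, vehicle 2 h replicate 1, also had 2970 CPM of kidney tubule markers. Hepatocyte markers reached 10400 CPM in Egf 2 h replicate 3, 14900 CPM in Egf 6 h replicate 3, and 17100 and 14500 CPM in untreated replicates 1 and 3, and were as low as 75.3 CPM elsewhere in heart. The computed level of Ehhadh is given beside the measured one, both in CPM of library totals. In Egf 2 h replicate 4 it came to 0.330 CPM, where 11.4 CPM was measured. It came to 94.4 CPM for vehicle 2 h replicate 1, where 96.9 CPM was measured. For untreated replicates 1, 2 and 3 it came to 63.3, 48.5 and 53.6 CPM, where 78.4, 50.3 and 54.1 CPM were measured. The same computation gave 0.0651 and 0.0551 CPM of Fgf21 for untreated heart replicates 1 and 3, from liver, where 0.444 and 0.527 CPM were measured.

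In lung, Egf 6 h replicate 3 had 29700 CPM of hepatocyte markers. Its Ppara was 27.3 CPM, against 4.10 to 5.54 CPM in the other 3 Egf libraries at 6 h, and its Ehhadh was 100 CPM, against 11.2 to 16.0 CPM in those 3. The computed level from liver and kidney was 24.5 CPM for Ppara, where 25.7 CPM was measured in CPM of the library total. For Ehhadh it was 130 CPM, where 94.4 CPM was measured. The edgeR change of Ppara in lung at 6 h was 1.11 ± 0.55 (adjusted p = 0.935) with that library and 0.05 ± 0.27 without it.

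**Figure D5:**
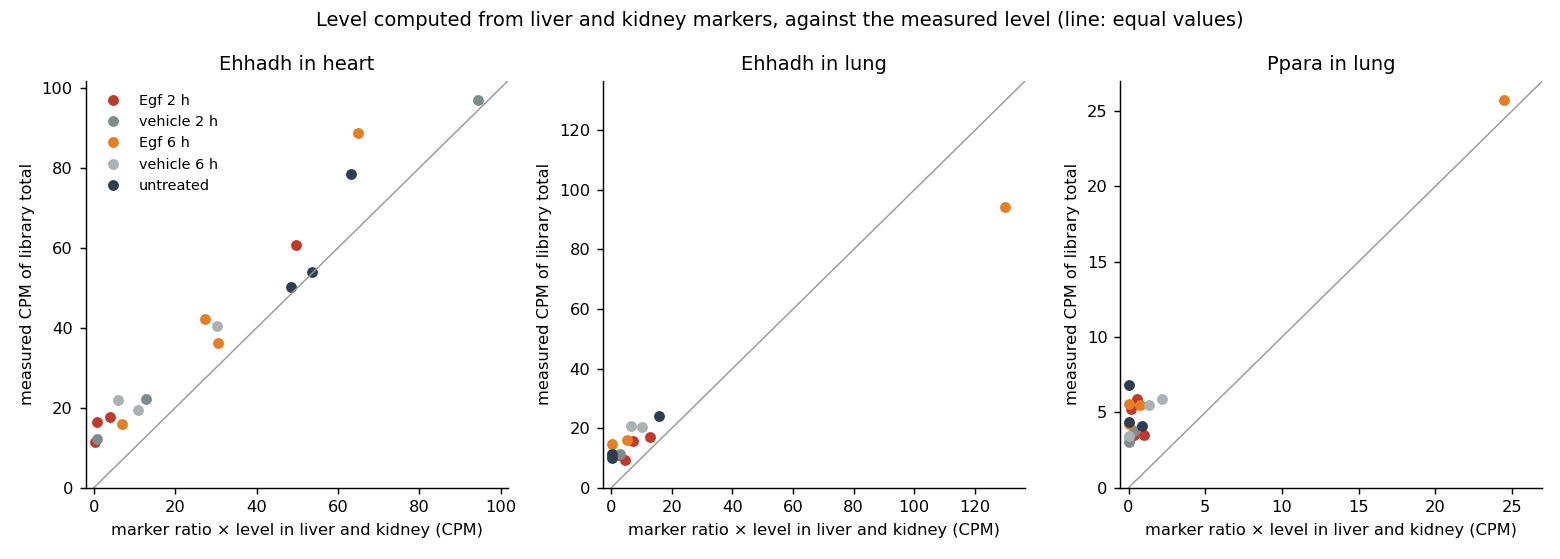
Measured CPM of Ehhadh in heart, Ehhadh in lung and Ppara in lung (y) against the level computed from liver and kidney markers (x), 1 point per library, with a line of equal values. Heart Ehhadh lies on or above the line, and Egf 6 h replicate 3 is the far point in both lung panels.

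Cpt1b, the muscle form of carnitine palmitoyltransferase, could not be read as a level. Over the 17 heart libraries it had 382 reads, 11 to 38 per library, while Cpt2, the partner enzyme in the inner membrane, had 57938. The table places Cpt1b on chromosome 15 from 89300608 to 89310066 on the minus strand, wholly inside a second protein-coding entry, Gm44502, from 89300608 to 89313899 on the same strand, which had 0 reads in all 68 libraries. The neighbouring Chkb, which overlaps that entry, had 22 heart reads. Whether reads were set aside because they fell in both entries was not tested. Within heart, Cpt1b averaged 1.21 ± 0.275 CPM in Egf libraries and 1.03 ± 0.194 CPM in vehicle libraries at 2 h (0.22 ± 0.35, adjusted p = 0.87).

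The genes whose levels most resembled a member were sought over the 17 libraries of the organ where it was highest, by Pearson r of log2(CPM + 1) among genes of at least 5 CPM, as a description with no test. For Ppara in liver, among 8589 genes, these were Abcc2, a bile canalicular transporter (r = 0.97), Hlf, a clock-controlled PAR bZIP factor (0.967), and Snx30, a sorting nexin (0.966). For Cpt1a in liver they were 1700001L05Rik (0.953), Polr1b, a subunit of RNA polymerase I (0.946), and Pnpla2, the adipose triglyceride lipase (0.922). For Angptl4 in liver the nearest were Gm5834 (0.909), Hsd17b12 (0.885) and Shld2 (0.883). For Fgf21 in liver they were Scamp2 (0.776), Med8 (0.712) and Thoc6 (0.66). In heart, Pdk4 was nearest to Zscan25 (0.776), Osmr (0.773) and an unnamed gene (0.757), and Cpt1b to Crispld2 (0.788), Ulk3 (0.78) and Dennd5a (0.734). In kidney, Ehhadh was nearest to Hltf (0.877), Adam10 (0.862) and Skida1 (0.859), and Acot1 to Gm48558 (0.779), St6galnac3 (0.747) and Ccpg1os (0.725). The libraries of an organ share its treatment groups, so group differences and single libraries both enter these values.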

How the data were processed

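The authors deposited 1 table of raw counts of reads for each gene and library. Per the submitters' processing notes, they used HISAT2 2.0.5 and featureCounts 1.5.0-p3 with build mm39. How overlapping genes were counted, and with which annotation release, is not given in the sources used here. Coordinates and gene lengths are the table's. For each organ, edgeR 4.0.16 in R 4.3.3 was fitted to 17 libraries in 5 groups (filterByExpr, TMM, robust quasi-likelihood F test). P-values were adjusted by Benjamini-Hochberg across every gene that passed the filter, and called under 0.05; the SE is that implied by the F statistic. One fit of 68 libraries in 20 groups compared organs. CPM use TMM within an organ, or across all libraries where organs are compared; marker sums and computed levels are CPM of library totals. Alternatives used limma 3.58.1, DESeq2 1.42.0, other size factors, no filter, covariates and left-out libraries. The procedure was tested on simulated data. RefSeq promoters are on GRCm38.p6, whose coordinates differ from mm39.

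The members, lists and tests were chosen with earlier results of these data known. All members were named, as were up to 4 passing genes of a list per comparison, by smallest p, and the 3 genes most similar to each member. Same-numbered libraries correlated above 0.1 in all 3 pairs only for vehicle 6 h with untreated, in heart (r = 0.295 to 0.614) and lung (0.112 to 0.389).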

Additional observations from a re-analysis of the deposited data

Results flagged for a closer look

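Each tested member was checked in each Egf group of 4 libraries, which gave 52 combinations. In 7 of these, 1 library lay far from the other 3 relative to the range of the group. For a single combination, chance alone gives about 1 in 20. Members share the libraries of a group, so the combinations are not independent and their count cannot be set against that rate. Heart Egf 2 h replicate 3 was the high library for Ppara (51.9 CPM), Cpt1a (63.6 CPM) and Ehhadh (55.0 CPM), and had 10400 CPM of hepatocyte markers. Lung Egf 6 h replicate 3 was the high library for Ppara (27.3 CPM) and Ehhadh (100.5 CPM), and had 29700 CPM of hepatocyte markers. Heart Egf 6 h replicate 2 was high for Pdk4 (607 CPM); the Pdk4 level computed from liver and kidney was 0.145 CPM there, of 621 CPM measured in CPM of the library total. Lung Egf 6 h replicate 4 was low for Acot1 (42.3 CPM), with 3240 CPM of skeletal muscle markers, against 5.59 to 8.87 CPM in the other 3. For heart Egf 2 h replicate 3 the computed level differed by gene. It was 3.76 CPM for Ppara, of 57.3 CPM measured, and 24.5 CPM for Cpt1a, of 70.2 CPM measured. For Ehhadh it was 49.6 CPM, of 60.7 CPM measured. The part of muscle in the Acot1 value was not tested.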

How the results depend on the processing

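The number of members called changed by more than 1.5 times as follows. The share of all genes called under each alternative is not given, so these counts have no background. With limma voom it was 2 in heart for Egf against vehicle at 6 h, 2 in heart for vehicle 6 h against untreated, 1 in heart for Egf 2 h against untreated, 2 in lung for Egf 2 h against untreated, 1 in lung and 2 in liver for vehicle 6 h against 2 h, 1 in kidney for vehicle against untreated at each time, 1 in liver for vehicle 2 h against untreated, 2 in liver for vehicle 6 h against untreated, 2 in liver for Egf against vehicle at 2 h and 1 in liver for the change of the Egf effect. With DESeq2 it was 1 in lung and 1 in liver for vehicle 6 h against 2 h, 1 in kidney for vehicle against untreated at each time, 1 in liver for vehicle 2 h against untreated, 2 in liver for Egf against vehicle at 2 h and 1 in liver for the change of the Egf effect. Fitting only the groups compared gave 1 in liver for vehicle 6 h against 2 h, 1 in liver for the change of the Egf effect and 0 in lung for Egf 2 h against untreated. Without a filter, with the replicate block or with hepatocyte markers as a covariate, Egf 2 h against untreated gave 0 in lung and 1 in kidney. The replicate block changed no other count within an organ. In liver, Egf 2 h against untreated gave 3 with DESeq2, limma voom or RLE size factors and 2 to 3 with 1 library left out, in place of 2. Leaving out 1 library gave 0 to 2 in liver for Egf against vehicle at 2 h, 0 to 2 in lung and 1 to 2 in kidney for Egf 2 h against untreated, and 0 to 1 in lung for vehicle 2 h against untreated. The causes of these changes were not tested. No called value changed sign. Of 2484 uncalled values under alternatives, 204 had the other sign. A block for condition and replicate number over the organs, chosen after seeing the data, left the counts of members among organs within 1.5 times.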
